A study of Homo sapiens with 4 samples.

Results

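The nuclear genes for the subunits of the respiratory chain and of ATP synthase were followed in U87TR-Da, a glioblastoma line derived from U87MG in which the DACH1 gene can be switched on. Members were chosen by gene symbol: NDUFA, NDUFB, NDUFC, NDUFS or NDUFV with digits only, SDHA to SDHD, CYC1, every UQCR symbol, the COX4 to COX8 subunits and every symbol that starts with ATP5, without pseudogenes. That gave 77 of the 19775 genes that the array measures with a probe set of their own. Of 86 protein-coding symbols in RefSeq that meet the rule, 9 were not analysed here. NDUFA4 is now COXFA4 in RefSeq, so it is no member by its current symbol, and its values stand beside complex IV.

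Each of 4 conditions had 1 array of total RNA and no replicate: DACH1 silenced or induced, each in DMEM with 10% fetal bovine serum (called labelled serum here) or in Neurobasal medium without serum, given bFGF, EGF, B-27 and N-2 (called labelled serum-free). All 4 labels, those of the silenced cells included, carry the same line of doxycycline at 1 µg/mL for 72 h, so they do not say what kept DACH1 off. The line is a single derivative of a single tumour line, and no label names separate cultures of a condition. A p-value here therefore reflects how single arrays scatter, pooled in large part over many genes, and that scatter may be technical. DACH1, a nuclear repressor of transcription, gave signals of 126.0 (silenced) and 4431 (induced) in labelled serum, and of 32.5 and 875.1 in labelled serum-free.

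Mitochondria make ATP by moving electrons from NADH and succinate to oxygen. Complex I takes electrons from NADH and complex II from succinate, complex III passes them to cytochrome c, and complex IV hands them to oxygen. Complexes I, III and IV pump protons, and ATP synthase uses the returning protons to make ATP. Most subunits are encoded in the nucleus, a core set is encoded in mitochondrial DNA, and assembly factors put both together. Glioblastoma cells are known for strong glycolysis, with respiration kept in many of them. The 13 protein genes of mitochondrial DNA were not analysed here, and the members are nuclear genes only.

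Some values go against the medium labels and bear on every comparison of the media. Of 11 contractile and matrix genes fitted, genes that serum is known to raise, 8 were called higher and 0 lower in the cultures labelled serum-free, with a median log2 difference of 2.91. CNN1, a smooth muscle actin-binding protein, gave 33.2 and 39.4 in labelled serum (silenced, induced) and 874.0 and 606.7 in labelled serum-free. CCN1 (911.2, 316.2, 851.0 and 779.1, in the same order) and TPM2 (343.9, 162.9, 167.1 and 171.6) overlapped between the media and were not called. Over all genes fitted, 15.4% were called higher and 12.7% lower. Of 8 proliferation genes, 7 were called higher in the cultures labelled serum-free and 0 lower, and their median was 2.07. That medium was given bFGF and EGF, so these genes need not go against the label. Cholesterol synthesis had 0 of 5 called (median -0.59). The media are therefore named by label only, and no direction below should be read as an effect of serum.

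The line was also set against cell type markers. Of 8 glioma and mesenchymal markers, VIM (6065 to 9278) and CD44 (4214 to 5666) were bright on every array. SPARC (663.5, 830.0, 5009 and 4321) and S100A10 (2601, 5185, 7930 and 8215) were higher on both arrays labelled serum-free, CHI3L1 gave 77.4, 21.4, 87.4 and 103.1, and NES lay between 19.6 and 35.8. The astrocyte markers GFAP and S100B were under the floor of 10.9 on every array. Immune markers summed to between 12.6 and 43.6 over 4 genes and epithelial ones to between 53.2 and 94.8 over 5 genes. Neuronal markers summed to 200.6 and 104.1 in labelled serum and to 431.2 and 388.4 in labelled serum-free over 4 genes. SNAP25 was most of that, and the neuronal nuclear marker RBFOX3 was under the floor on every array. Striated muscle markers summed to 141.0, 221.7, 384.9 and 483.8 in the same order, nearly all from TNNT1, with ACTA1, MYH7 and CKM under the floor. The part of SPARC, S100A10, SNAP25 and TNNT1, which move with the medium labels, in the results below was not tested.

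Signals are MAS5 intensities on a linear scale. A gene was read from its brightest probe set of 1 gene, and before log2 any lower value was raised to 10.9, the 40th percentile over the whole table. A pair of arrays was compared for genes with at least 1 of the arrays at or above 17.2, the median of all signals. A single fit, limma with DACH1 state and medium as terms, was made over the 12103 genes with at least 2 of 4 arrays at that level. It has 1 residual degree of freedom, and genes with a Benjamini-Hochberg adjusted p under 0.05 over all genes fitted are called. Each SE leans on a variance pooled over the genes fitted, so it follows a gene's own scatter only weakly. UQCRC2 and NDUFB8 had residual SDs of 0.013 and 0.275, with SEs of 0.18 and 0.22. Of the 77 members, 72 entered the fit. The other 5 were ATP5MF, read only by a probe set under the floor on every array, and the isoform genes COX6B2, COX7A1, COX7B2 and COX8C. Of the 72, 70 had all 4 arrays at 200 or more, from 204.9 for ATP5MC1 to 5238 for COX6A1. In bulk RNA, fewer cells of a type and less RNA per cell cannot be told apart.

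Promoters were looked at first, because genes of the respiratory chain are known targets of nuclear respiratory factor 1 (NRF1) and of the ETS factor GABP. RefSeq promoters of GRCh38.p14, from 250 bases before to 50 after the start, were at hand for 65 of the 77 members. The NRF1 core CGCATGCG, which reads the same on both strands, was in 10 of 65 member promoters (15.4%), in 2.19% of all 27305 promoters and in 3.97% of those of the genes fitted. The ETS core CCGGAAG, searched on both strands, was in 18 member promoters (27.7%), 10.7% of all and 19.0% of those of the genes fitted. The motifs share no overlapping letters in the promoter printed first. A match is a description of letters and no evidence that a factor bound there. The 150 bases before the start are printed for a member with both cores, SDHD (chr11:112086723-112086872, plus strand), and for 2 members with neither, NDUFB8 (chr10:100529924-100530073, minus strand) and NDUFA7 (chr19:8321376-8321525, minus strand). SDHD is the called member of complex II in the comparison of the media below, and NDUFB8 and NDUFA7 have the highest and the lowest difference of complex I there. Each reads 5′ to 3′ on the gene's strand, and capitals mark the NRF1 core and, further on, the ETS core as it reads on the opposite strand.
SDHD: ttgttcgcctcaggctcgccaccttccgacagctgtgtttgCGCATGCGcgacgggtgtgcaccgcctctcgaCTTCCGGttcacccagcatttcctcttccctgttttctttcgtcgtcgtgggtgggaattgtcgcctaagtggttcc
NDUFB8: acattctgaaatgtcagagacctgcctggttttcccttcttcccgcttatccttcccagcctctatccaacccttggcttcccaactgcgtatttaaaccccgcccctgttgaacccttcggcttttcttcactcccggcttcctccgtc
NDUFA7: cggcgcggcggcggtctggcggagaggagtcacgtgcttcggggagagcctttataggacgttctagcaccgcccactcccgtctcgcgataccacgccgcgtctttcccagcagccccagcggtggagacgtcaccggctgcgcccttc

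The motifs were also counted by the medium in which the fitted members read higher. Of 21 members with both arrays labelled serum-free above both labelled serum, 2 held the NRF1 core and 5 the ETS core. Of 26 members with the opposite order, the counts were 4 and 7, and of 15 members with overlapping media they were 4 and 6. Among the called genes with a promoter at hand, SDHD alone holds a core, and it holds both. NDUFB8, NDUFA7, NDUFS4, ATP5MC1 and UQCRC2 hold neither in the whole 300 bases.

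The media were compared to ask how the culture condition sets the expression of the chain. The members did not move as a block: 6 were called lower and 2 higher in the cultures labelled serum-free, from 3 complexes and ATP synthase, and the rest were not called. The called genes were 1.76 to 2.43 times apart between the media. Lower were NDUFA7, NDUFS4 and NDUFB5 of complex I, SDHD of complex II, UQCRC2 of complex III and ATP5MC1 of ATP synthase. Higher were NDUFB8 of complex I and ATP5F1D of ATP synthase. Over all genes fitted, 15.4% were called higher and 12.7% lower, and the share of members was not tested against that of other genes. Without a filter on low signals 0 members and 0 genes were called, while 32 members had an unadjusted p under 0.05, so the calls depend on leaving dim genes out.

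**Figure D1:**
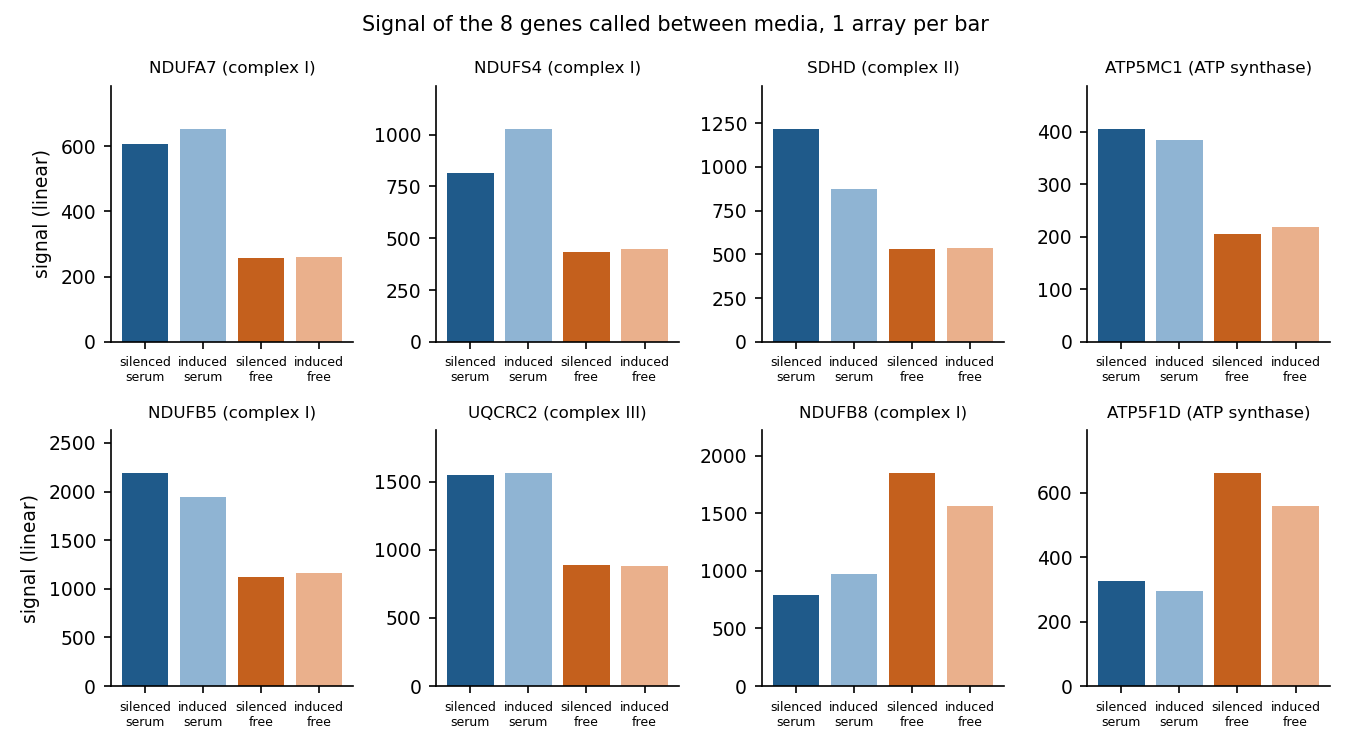
Signal (linear scale) of the 8 called genes, 1 bar per array, from left to right silenced and induced labelled serum, then silenced and induced labelled serum-free. In the first 6 panels both bars labelled serum stand above both labelled serum-free, and in NDUFB8 and ATP5F1D below them.

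Complex I held 32 fitted members and the widest range of any complex here. NDUFA7, an accessory subunit on the matrix side, gave 606.0 and 653.5 in labelled serum (silenced, induced) and 256.5 and 261.2 in labelled serum-free. Both DACH1 states were low together in the second medium, and NDUFA7 had the largest difference of the members. The fitted log2 difference was -1.28 ± 0.18 (SE, 2 arrays per medium), a signal 2.43-fold lower, with a limma adjusted p = 0.0231.

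NDUFS4, an accessory subunit at the NADH-oxidising end that is lost in an inherited form of Leigh syndrome, gave 812.8 and 1029 in labelled serum and 434.4 and 447.5 in labelled serum-free. The media did not overlap, and the log2 difference was -1.05 ± 0.19 (limma adjusted p = 0.0328). NDUFB5, of the membrane arm, gave 2192 and 1949 against 1119 and 1159. It was 1.81-fold lower in labelled serum-free, with a log2 difference of -0.86 ± 0.19 (limma adjusted p = 0.0422).

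NDUFB8, another membrane arm subunit that is often used to read complex I assembly, went the other way. It gave 788.5 and 976.1 in labelled serum and 1850 and 1564 in labelled serum-free, and the lowest of the second pair was well above the highest of the first. The log2 difference was 0.96 ± 0.22 (limma adjusted p = 0.0493), close to the threshold. A second probe set for NDUFB8 gave 873.8, 810.2, 1527 and 1552 in the same order, a mean log2 difference of 0.87. NDUFB5 and NDUFB8 therefore sit in the same arm of complex I and were called in opposite directions.

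Of the 32 members of complex I, 16 had both arrays labelled serum-free below both labelled serum, 11 above, and 5 overlapped, with a median fitted difference of -0.20. Over all genes fitted, 35.4% lay below in both arrays and 37.4% above. Of the 5 core subunits measured, 0 were called. NDUFV2 (970.4, 1033, 639.5 and 652.5), NDUFS1 and NDUFS3 lay lower in labelled serum-free, at -0.63, -0.57 and -0.51, and NDUFV1 and NDUFS7 lay at 0.16 and 0.14. The value of NDUFS1 is that of its brightest probe set, and its dimmer ones lay at 0.48, 0.93, 0.26 and -0.15. NDUFV1 binds NADH and its flavin, NDUFV2 and NDUFS1 carry iron-sulphur clusters that take the electrons on.

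The NADH-oxidising end was chosen as a group after its values were seen, so it is a description only. The 8 fitted subunits taken here as that end were NDUFV1, NDUFV2, NDUFV3, NDUFS1, NDUFS4, NDUFS6, NDUFA2 and NDUFA12. Of these, 6 lay lower in both arrays labelled serum-free, 1 higher and 1 overlapped, beside 35.4% lower and 37.4% higher of all genes fitted. Their median was -0.49, between -1.05 for NDUFS4 and 0.16 for NDUFV1, and NDUFS4 alone of these 8 was called. NDUFA7, called at -1.28, and NDUFA6, at -0.42, were not in the list. NDUFA12, an accessory subunit here, gave 1091, 1399, 707.1 and 787.4, a difference of -0.73 that missed the threshold (limma adjusted p = 0.056). After NDUFB8, the highest of complex I were NDUFB2, NDUFB11, NDUFC1 and NDUFA1, at 0.65, 0.60, 0.58 and 0.57, which were not called. Other NDUFB genes lay lower, such as NDUFB10 at -0.60 and NDUFB6 at -0.15. The value of NDUFB10 depends on the probe set: a second, dimmer one gave 226.7, 244.5, 276.2 and 245.0 and lay at 0.14. NDUFB2 gave 1754, 2457, 3154 and 3388, so the media did not overlap and the induced array was the higher in each.

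**Figure D2:**
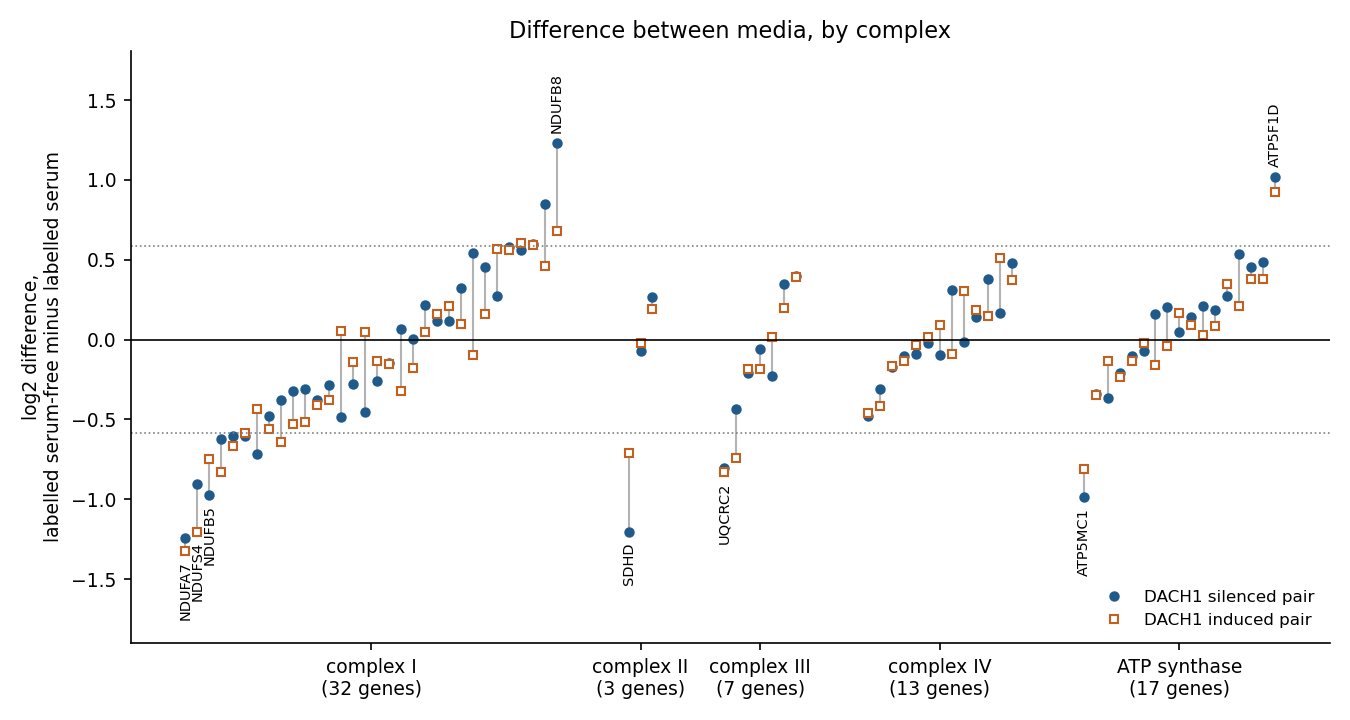
Log2 difference between media (labelled serum-free minus labelled serum) of the 72 members, grouped by complex and ordered by the mean of both pairs, with filled circles for the DACH1-silenced and open squares for the DACH1-induced pair; dotted lines mark 1.5-fold. Most points lie between the dotted lines, and the named genes are the 8 called.

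Complex II, succinate dehydrogenase, is the one complex here made of nuclear subunits alone, and 3 of its 4 were measured. SDHD, a membrane anchor that binds haem and ubiquinone, gave 1219 and 875.0 in labelled serum and 528.1 and 535.5 in labelled serum-free. The media did not overlap, and the silenced array labelled serum was the highest. The fitted log2 difference was -0.96 ± 0.22 (1.94-fold lower, limma adjusted p = 0.0462). Its partner anchor SDHC gave 663.7, 745.3, 632.4 and 732.9, with overlapping media and a difference of -0.05. SDHA, the flavoprotein that oxidises succinate, gave 568.0, 592.6, 683.7 and 677.2, a difference of 0.23 (limma adjusted p = 0.375). The value of SDHC depends on the probe set: others of similar brightness lay at -0.14 and -0.03, but 1 that gave 546.9, 574.7, 398.7 and 353.4 lay at -0.58, in the direction of SDHD.

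Complex III had 7 fitted members, of which 4 lay lower in both arrays labelled serum-free, 2 higher and 1 overlapped. Over all genes fitted, 35.4% lay lower and 37.4% higher. UQCRC2, a core protein of the matrix side, gave 1552 and 1564 in labelled serum and 889.8 and 880.4 in labelled serum-free. The DACH1 states hardly differed, and the media were 1.76-fold apart (-0.82 ± 0.18, limma adjusted p = 0.0427). A second bright probe set gave 1267, 1238, 824.4 and 837.0, a log2 difference of -0.59, and another, dim one (19.3, 15.0, 32.4, 32.0) lay the other way. With the mean of all probe sets UQCRC2 was at -0.16 and no longer called (limma adjusted p = 0.457). Its partner core protein UQCRC1 lay the other way, with 781.1, 777.7, 1029 and 1022 and a difference of 0.40 (limma adjusted p = 0.165). CYC1, cytochrome c1, which passes electrons to cytochrome c, gave 1258, 1412, 930.0 and 845.5 (-0.59, limma adjusted p = 0.0926). The small subunits UQCR10 and UQCRQ lay at -0.12 and 0.28.

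Complex IV, cytochrome c oxidase, varied little between the media. Of 13 fitted members 0 were called, 3 lay higher and 4 lower in both arrays labelled serum-free, and 6 overlapped. Over all genes fitted, 37.4% lay higher and 35.4% lower. The median was -0.00 and the range -0.47 to 0.43. COX4I1, a main regulatory subunit, gave 3094, 3512, 4029 and 3885, a difference of 0.26. COX8A gave 2331, 2540, 3251 and 3290 (0.43), and COX7A2 gave 2876, 2863, 2060 and 2085 (-0.47), and these are the ends of the range. COX5B gave 3603, 3727, 3377 and 3973, with overlapping media. COXFA4, the former NDUFA4 and a subunit of complex IV, gave 2663, 2462, 2617 and 2556, a difference of 0.01 (limma adjusted p = 0.958). COX7A2L, which helps to join complexes III and IV, gave 971.5, 1013, 1070 and 1151, a difference of 0.16.

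Several complex IV subunits have a second gene that is used in particular tissues, and those genes gave signals that were low or under the floor here. Each was read by 1 probe set, so low expression and a probe set that reads poorly cannot be told apart. COX4I2, the isoform known from lung and low oxygen, gave 33.5, 32.8, 29.8 and 29.2, a narrow range across all arrays. COX6A2, the heart and muscle form, gave 20.0, 10.9, 22.4 and 15.5, next to the floor. COX7A1, COX7B2 and COX8C were under the floor on every array (0.7 to 10.2), and COX6B2, the testis form, gave 2.2, 16.4, 24.4 and 4.8. Their first isoforms were bright on every array: COX6A1 gave 4221, 4955, 5238 and 4657, COX6B1 2352, 2666, 1898 and 2000, and COX7B 3164, 3216, 2970 and 3145. A low signal of a probe set cannot be set against the signal of another, so no ratio of isoforms is given.

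ATP synthase had 17 fitted members, of which 6 lay higher in both arrays labelled serum-free, 5 lower and 6 overlapped, with a median of 0.11. These counts are near the shares over all genes fitted, 37.4% higher and 35.4% lower. ATP5F1D, the delta subunit of the rotating stalk, gave 326.9 and 294.8 in labelled serum and 661.5 and 559.1 in labelled serum-free. The media did not overlap, and the gene was 1.96-fold higher in labelled serum-free (0.97 ± 0.18, limma adjusted p = 0.0329). A second probe set gave 75.0, 84.6, 266.7 and 209.8, a mean log2 difference of 1.57 in the same direction.

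ATP5MC1 is 1 of 3 genes that encode the same mature c subunit of the proton-carrying ring. It gave 406.1 and 383.7 in labelled serum and 204.9 and 219.2 in labelled serum-free, which was 1.86-fold lower (-0.90 ± 0.18, limma adjusted p = 0.0384). The other two genes of that subunit were not called: ATP5MC2 gave 1704, 1458, 1322 and 1332 (-0.25), and ATP5MC3 gave 2250, 2433, 2483 and 2595 (0.12). Of the catalytic core, ATP5F1B, the beta subunit, gave 2804, 3080, 3232 and 2991, with overlapping media (0.08). ATP5F1A, the alpha subunit, gave 2029, 2142, 2844 and 2781, higher on both arrays labelled serum-free and not called (0.43, limma adjusted p = 0.145).

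ATP5IF1, the inhibitor that stops ATP synthase from running backwards, depended on the probe set. Its brightest gave 558.0, 615.3, 764.0 and 798.9, a difference of 0.42 (limma adjusted p = 0.154). A second gave 302.5, 317.7, 601.2 and 622.1 (0.98), and another 51.1, 93.9, 364.1 and 364.8 (2.40). All 3 read higher in labelled serum-free and differ in size. Of 44 members with more than 1 probe set, 20 had others with a mean signal of at least 100, 30 in all, and ATP5IF1 was the 1 member where such a probe set lay over 1 log2 unit from the chosen one in any pair.

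The single pairs of arrays were counted at 1.5-fold. Among silenced cultures, 5 of 73 members were at least 1.5-fold higher and 10 lower in labelled serum-free, beside 29.0% and 24.2% of the genes compared. Among induced cultures the counts were 4 and 10 of 71, beside 25.9% and 23.4%. At 2-fold in either direction there were 5 and 2 members, beside 27.5% and 24.1% of genes. The members are bright genes, so bright genes are the closer background: of genes that reached 500 on any array, 53.4% and 49.0% were 1.5-fold apart in the silenced and induced pair, against 13 of 68 members in each. In the fit, 16.1% of such genes were called higher and 17.3% lower. The SD of the fitted difference was 0.45 over members, 0.97 over all genes fitted and 1.16 over bright genes, with medians of -0.05 over members and 0.02 over all genes. These are descriptions, and the spread of the members was not tested against that of other genes.

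**Figure D3:**
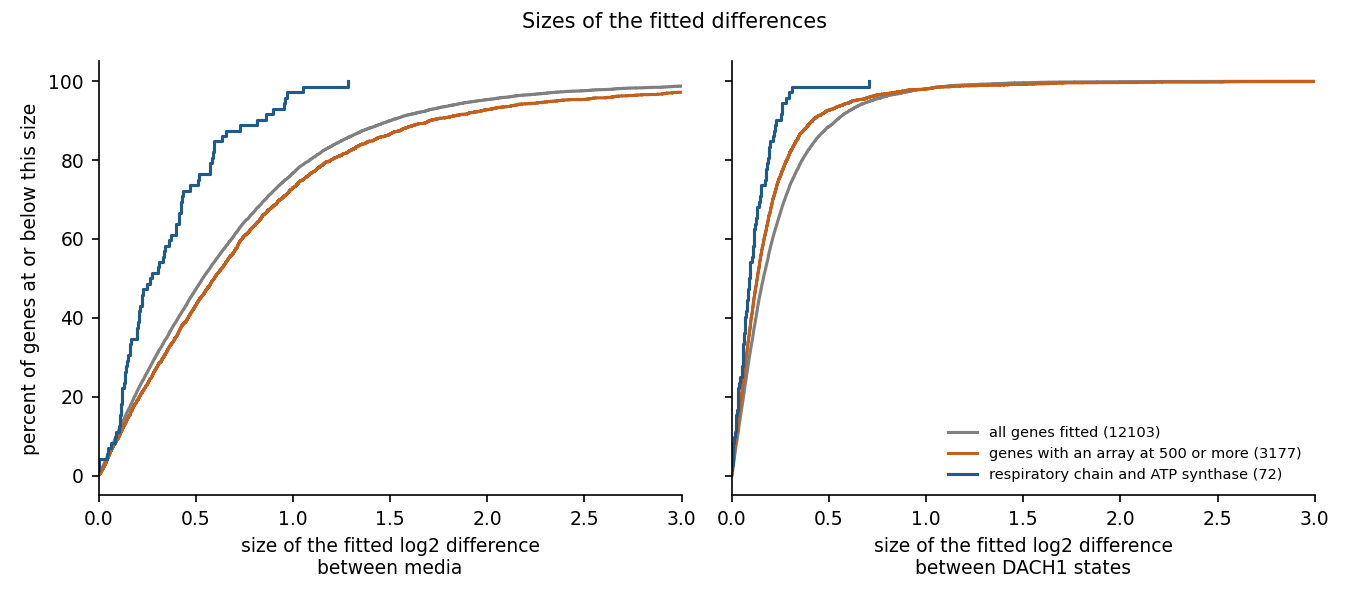
Cumulative percent of genes (y axis) at or below each size of the fitted log2 difference (x axis, sign left out), for the media at left and the DACH1 states at right, with lines for all 12103 genes fitted, the 3177 that reached 500 on any array, and the 72 members. The line of the members climbs earlier than the others in the left panel, where their SD was 0.45 against 0.97 for all genes.

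DACH1 induction was compared within each medium to ask what the repressor does to these genes. In the fit 0 members and 0% of all genes were called in either direction. DACH1 itself, at a fitted log2 difference of 4.94, was not called (limma adjusted p = 0.234), so the absence of calls says nothing about the members. Of 12103 genes 585 had an unadjusted p under 0.05, among them 1 member, COX6A2, next to the floor. The smallest limma adjusted p of a member was 0.931. In labelled serum 53 of 72 members lay above 0 with DACH1 induced and 19 below, with a median log2 difference of 0.11 and an SD of 0.21. The median of all genes compared was 0.01, and that of genes that reached 500 on any array 0.08. With quantile normalization the median of members was 0.07. In labelled serum-free 51 of 73 lay above 0 and 22 below, with a median of 0.06 (SD 0.20), where all genes compared had -0.00 and the bright ones 0.01, and it was 0.03 with the mean of probe sets. In both media 38 members lay above 0 and 6 below. The share of all genes, or of bright ones, above 0 was not counted, so these counts cannot be read as a trait of the members. No replicate exists to measure these shifts against.

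Only 2 members in labelled serum were at least 1.5-fold apart between DACH1 states, 1 higher and 1 lower of 72, where 9.81% of genes were higher and 12.7% lower. In labelled serum-free there were 0 higher and 1 lower of 73, beside 4.21% and 9.39%. At 2-fold in either direction the counts were 0 and 1, beside 7.69% and 3.74%. Among bright genes 14.7% and 1.58% were 1.5-fold apart in labelled serum and labelled serum-free, against 1 and 0 of 68 members.

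The member with the highest difference was NDUFB7, a membrane arm subunit facing the intermembrane space. It gave 438.6 silenced and 662.7 induced in labelled serum (0.60) and 638.4 and 620.2 in labelled serum-free (-0.04), so the low value was the silenced array labelled serum. NDUFB2 followed at 0.49 in labelled serum (1754 and 2457) and 0.10 in labelled serum-free. NDUFA12 and NDUFS4 lay at 0.36 and 0.34 in labelled serum, and at 0.15 and 0.04 in labelled serum-free.

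The lowest in labelled serum were COX6A2 at -0.88, SDHD at -0.48, NDUFA3 at -0.33 and ATP5MC2 at -0.22. SDHD went from 1219 to 875.0 there and from 528.1 to 535.5 in labelled serum-free. In labelled serum-free NDUFA1 was highest at 0.30 (1920 and 2363), followed by NDUFA5 and ATP5ME at 0.28 and NDUFB1 at 0.24. NDUFA1 was also at 0.32 in labelled serum (1285 and 1600), close to its value in the other medium. The lowest in labelled serum-free was COX6B2, at least 2.24-fold lower (24.4 and 4.8, the latter under the floor), then COX6A2 at -0.53 and ATP5F1D and NDUFB8, both at -0.24.

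**Figure D4:**
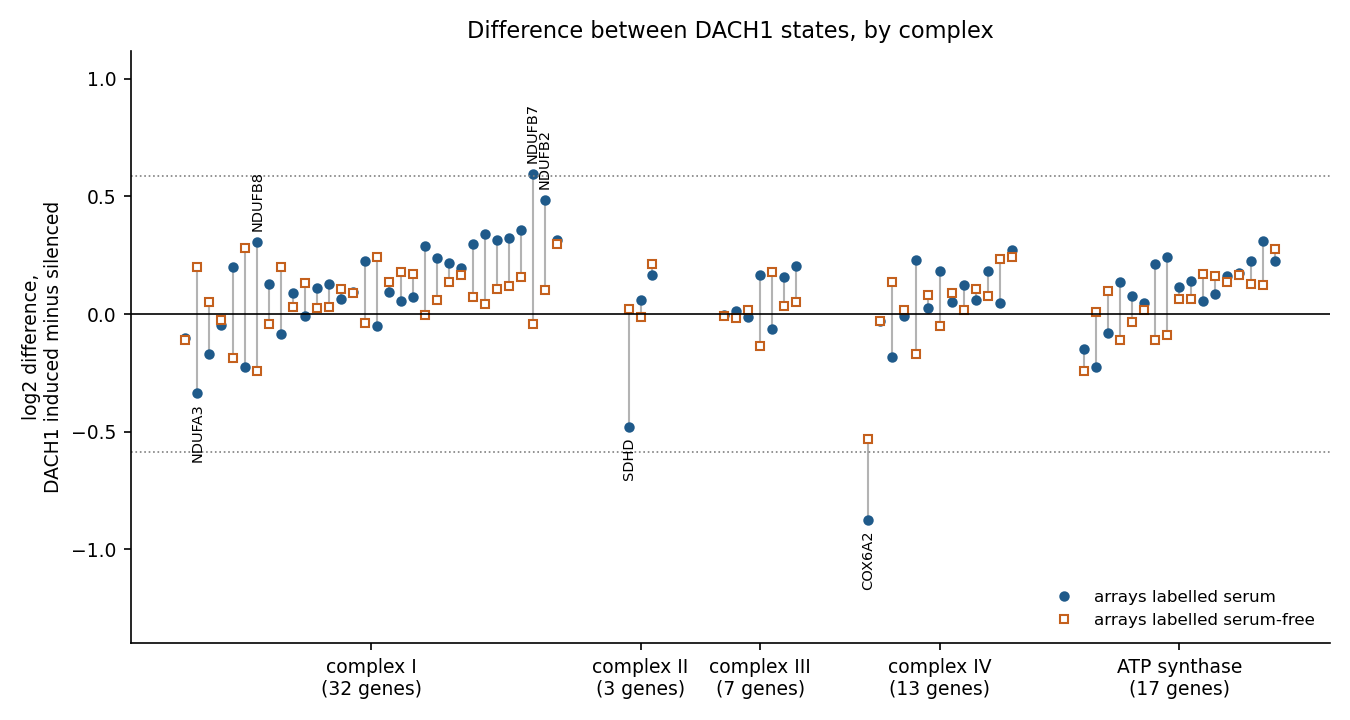
Log2 difference between DACH1 states (induced minus silenced) of the 72 members fitted, grouped by complex and ordered by the mean of both media, with filled circles for arrays labelled serum and open squares for arrays labelled serum-free; dotted lines mark 1.5-fold. NDUFB7 in labelled serum (0.60) and COX6A2 in labelled serum (-0.88) lie outside the dotted lines.

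The differences between DACH1 states were compared between media for each gene. The median difference of differences (labelled serum-free minus labelled serum) was -0.03 over members and -0.01 over all genes fitted. For the fitted members the median residual SD, the only error that a gene's own arrays give, was 0.06 on the log2 scale. It mixes the error of single arrays with any true dependence of DACH1 on the medium, which cannot be told apart.

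Other genes of mitochondria were read for context, from lists chosen with earlier results of these data known. Proteins that assemble the complexes had 48 fitted members, with 2 called higher and 9 lower in labelled serum-free. The shares of all genes fitted were 15.4% and 12.7%. The median of the assembly proteins was -0.32, where the subunits had -0.05. NDUFAF2, which helps to build complex I, gave 449.3, 578.5, 164.9 and 184.7 (-1.55, limma adjusted p = 0.0203), and NDUFAF4 gave 721.6, 761.7, 277.4 and 309.9 (-1.34, limma adjusted p = 0.022). PET117, a factor of complex IV, lay at -1.70. COX20 and ACAD9, which assist complexes IV and I, were called higher at 1.26 and 1.14.

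Mitochondrial ribosomal proteins, which translate the subunits of mitochondrial DNA, had 75 fitted genes, with 19 called lower and 0 higher and a median of -0.45. MRPS30 gave 958.0, 1161, 220.4 and 267.2, which was -2.12 (limma adjusted p = 0.017), and MRPL42 and MRPS18B lay at -1.42 and -1.20. Cytosolic ribosomal proteins had 1 of 55 called, lower, and a median of -0.03. Of all genes fitted, 15.4% were called higher and 12.7% lower. Whether these lists differ from the members was not tested.

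Regulators of mitochondrial genes had 11 fitted members, 3 called lower and 0 higher, beside 12.7% and 15.4% of all genes fitted. Their median was -0.69. TFAM, which packages and transcribes mitochondrial DNA, gave 302.6, 259.4, 130.1 and 138.7 (-1.06, limma adjusted p = 0.0328), and PPARGC1B and TFB2M were called at -1.29 and -1.02. NRF1 gave 68.0, 79.7, 78.2 and 68.0, a difference of -0.01 (limma adjusted p = 0.966). GABPA, of the ETS factor GABP, lay at -0.76 (limma adjusted p = 0.0576) and ESRRA at -0.50. The coactivator PPARGC1A gave 68.5, 18.2, 16.9 and 11.4 and was not called (limma adjusted p = 0.0699), with the silenced array labelled serum apart from the other 3.

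Enzymes of the citric acid cycle, the source of the NADH and succinate, had 1 of 11 called in each direction (IDH3G at 1.00, IDH3A at -0.91) and a median of 0.07. Those 2 genes encode subunits of the same isocitrate dehydrogenase. CYCS, cytochrome c, gave 3772, 4376, 3302 and 3343, with a difference of -0.29 (limma adjusted p = 0.289). In the list of cytochrome c and hypoxia-linked respiratory genes, with 6 fitted, 3 were called higher and 0 lower. They were PDK1, a kinase that inhibits pyruvate dehydrogenase, at 2.53, and the mitophagy receptor BNIP3 at 1.73. The last was the protease LONP1, which degrades a complex IV isoform in low oxygen, at 1.15. Of 12 outer membrane and import genes, the channels VDAC3 and VDAC1 were called higher at 0.95 and 0.91 and the import receptor TOMM20 lower at -0.82. Beside these 3 lists, 15.4% of all genes fitted were called higher and 12.7% lower.

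Glycolysis, which makes ATP without the chain, had 7 of 17 genes called higher and 0 lower in labelled serum-free. The shares of all genes fitted were 15.4% and 12.7%, and the median of the glycolysis genes was 1.00. ENO2 gave 282.0, 249.7, 2271 and 2673 (3.21, limma adjusted p = 0.0167), and ALDOC and GPI lay at 2.07 and 1.98. For DACH1, 0 genes were called in each of these lists.

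**Figure D5:**
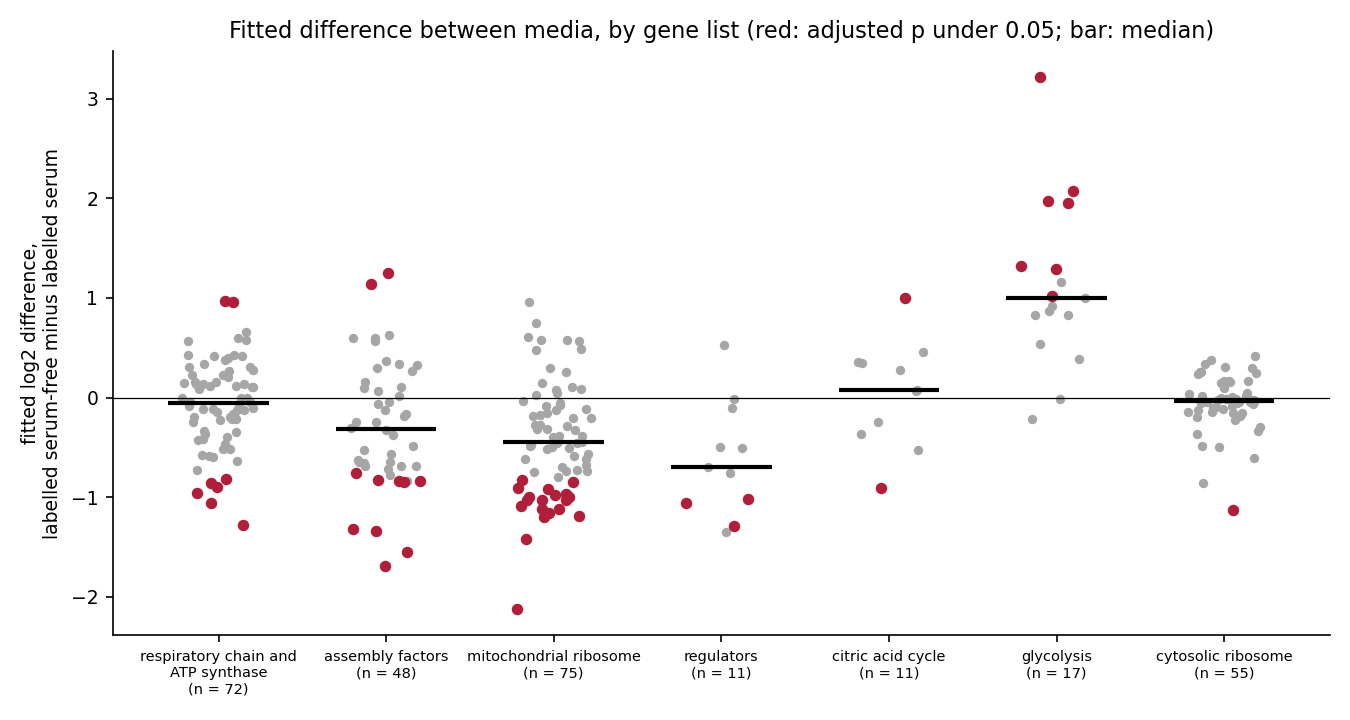
Fitted log2 difference between media (labelled serum-free minus labelled serum) of each gene, by list, with the median as a black bar and genes at adjusted p under 0.05 in red; sideways position has no meaning. The respiratory chain and ATP synthase centre on -0.05, the mitochondrial ribosome on -0.45 and glycolysis on 1.00.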

How the data were processed

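The authors deposited 1 table of signal intensity per probe set, linear, with 1 column per array; per the submitters' processing notes MAS5 was used, and its version and target are not given in the sources used. MAS5 subtracts a background read from mismatch probes, so dim signals scatter widely after log2. Per the labels' protocols, 6 µg of RNA went into each labelling. Array medians were 16.5, 15.7, 19.3 and 17.1, and 2% trimmed means lay between 99.60 and 99.62, so 1 factor scaled each array. Depth has no meaning here, and the number of arrays limits precision. Of 54613 probe sets, 41091 had 1 gene, 1801 several and 11721 none listed in the platform annotation, and Entrez identifiers gave current symbols for 99.9% of the first. The table had 0 unused columns.

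Floor, filters and the limma fit (lmFit and eBayes on log2 signals, DACH1 and medium as terms, no interaction) are given with the results. The fit was tested on simulated data, which is a check of the code and no support for the calls. The members and lists were chosen with earlier results of these data known. Named members are the called ones and up to 4 highest and 4 lowest of each pair and, among fitted members, of the difference of differences. The 2 brightest per complex, complex II, the isoform genes, COXFA4, COX7A2L and ATP5IF1 are named too. Outside the members they are DACH1, PPARGC1A, NRF1, GABPA, TFAM, ESRRA, CYCS and up to 3 per direction of each list. Other members were named after their values were seen (NDUFS1, NDUFS3, NDUFS7, NDUFS6, NDUFA2, NDUFA6, NDUFB6, NDUFB10, CYC1, UQCRC1, ATP5F1A, ATP5F1B and ATP5MC3), as were CNN1, CCN1, TPM2 and the markers. Alternatives tried were a pseudocount, no floor, quantile normalization, other filters, a trended variance prior, the mean of probe sets, probe sets without the _x_at and _s_at kinds, and 2-fold. Tools were limma 3.58.1 in R 4.3.3, and numpy 2.4.6, pandas 2.3.3 and matplotlib 3.10.9 in Python 3.11.15.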

Additional observations from a re-analysis of the deposited data

Results flagged for a closer look

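Of the fitted members with the 4 highest and 4 lowest gaps between the DACH1 differences of the media, 7 had opposite signs in the 2 media. Picking members by the size of the gap favours opposite signs, so that count is a description of the choice. With 1 array per condition the gap was not tested, and each value rests on 4 arrays. COX6B2, outside the fit and under the floor on 2 arrays, was not ranked, and its gap was -1.75. The gap (labelled serum-free minus labelled serum, log2) was -0.637 for NDUFB7, -0.55 for NDUFB8, -0.401 for COX6A1 and -0.386 for NDUFV3, which lay higher with DACH1 induced in labelled serum and lower in labelled serum-free. It was 0.535 for NDUFA3, 0.502 for NDUFA5 and 0.499 for SDHD, which lay the other way. NDUFA3 gave 1018 and 807.6 (silenced, induced) in labelled serum and 728.7 and 837.4 in labelled serum-free, and NDUFA5 gave 1550, 1328, 1131 and 1372. NDUFV3 gave 306.8, 351.9, 320.8 and 281.5. For NDUFB8 a second probe set gave 873.8, 810.2, 1527 and 1552, with DACH1 differences of -0.11 and 0.02, opposite in sign to those of the chosen probe set in both media.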

How the results depend on the processing

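No paired analysis was possible because the labels give no replicate numbers and each condition has 1 array. Leaving out an array leaves no residual degree of freedom, so it was not run; the single pairs stand in for it. Of 148 alternatives of the counts and medians, 116 kept the value within its limits and 32 did not. The cause was not tested beyond what each setting changes. The medium fit had 2 members called higher and 6 lower, beside 28.1% of genes called. The counts were 1 and 2 without a floor, where 17.4% of genes were called. Without a filter they were 0 and 0, with 0 genes called (smallest limma adjusted p of a member 0.109). Among genes with an array at 500 or more they were 6 and 11 of 68 (48.6% of genes called). They were 6 and 13 with a trended variance prior (35.1% of genes called), and 5 and 5 with the mean of probe sets (30.3%). The 8 called genes kept their direction in all 69 gene alternatives and lost the threshold in 18, of which 8 came without a filter and 5 without a floor; SDHD did so with quantile normalization (limma adjusted p = 0.0502), UQCRC2 without probe sets ending in _x_at or _s_at (0.0862), and NDUFS4, SDHD and UQCRC2 with the mean of probe sets (0.074, 0.0782 and 0.457). DACH1 calls among members were 0 in every setting. The median medium difference of members was -0.222 (silenced) and -0.106 (induced) with quantile normalization, and in the silenced pair 0.0531 with the mean of probe sets and 0.072 without _x_at and _s_at, a change of sign. Members 1.5-fold higher and lower with DACH1 in labelled serum were 0 and 0 with a pseudocount, 2 higher without a filter, 0 lower among genes that reached 500 on any array and with every array above the median, 3 higher with the mean of probe sets, and 6 and 3 without _x_at and _s_at. In labelled serum-free they were 0 lower under both stricter filters, and 4 and 2 without _x_at and _s_at. In the silenced medium pair 9 were higher with the mean of probe sets. At 2-fold the counts were 0 and 0 for DACH1 in labelled serum, 3 and 2 for the medium in silenced and 0 and 2 in induced cultures. Signals near the floor limit COX6A2, COX6B2 and the other second isoforms.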
